A study of Mus musculus with 6 samples.

Results

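The genes of glycolysis, glycogen turnover and glucose transport comprise 39 named genes, found on the array by their symbols, with no threshold on a measured value. A probe set that the array annotation gives to 1 of these symbols only was found for 35 of them, among 22180 genes measured in all. Gpi1, Eno1 and Pfkfb1 were not analysed here, and Aldoa has only a probe set shared with Aldoart1, so it stands outside the counts. Signals came from 6 mouse arrays. The ES group was 3 samples of undifferentiated, pluripotent embryonic stem cells. The Pax7-GFP group was 3 samples of cells derived from mouse ES cells by 3 weeks of myogenic differentiation and sorted for a green fluorescent reporter of Pax7, with gates set on undifferentiated cells of the same reporter line. The labels do not name the ES line or lines, the number of clones, or any sort of the ES samples. The comparison asks how cells on the way to muscle differ from pluripotent cells, and here which isoform of each enzyme or carrier they carry.

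Glycolysis splits glucose to pyruvate, and most of its steps are served by several genes whose products differ in regulation and tissue. Skeletal muscle uses its own versions at many steps, among them the glucose carrier GLUT4 (Slc2a4), muscle phosphofructokinase (Pfkm), muscle phosphoglycerate mutase (Pgam2), beta-enolase (Eno3) and muscle glycogen phosphorylase (Pygm). Pluripotent cells are known for a high rate of glycolysis, and muscle for a glycogen store that it breaks down when it contracts. Pyruvate dehydrogenase kinases (Pdk1 to Pdk4) restrain the enzyme complex that turns pyruvate into acetyl-CoA inside the mitochondrion, and so steer fuel use.

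Marker genes were read first as a check of the labels. Pax7 stood at 5.63 to 5.77 on the log2 scale in ES arrays and at 10.65 to 11.15 in Pax7-GFP arrays, where the sort selects for it. Nanog, a core pluripotency factor, stood at 11.93 to 12.07 and at 4.96 to 5.26. All 8 pluripotency markers fell and 5 of 6 muscle progenitor markers rose. Of 8 markers of differentiated muscle 7 rose, and Ckm, the muscle creatine kinase, was at 5.77 to 5.92 and 5.86 to 5.99 without passing the test. Fibroblast markers also moved with the groups, as 5 of 6 rose and their summed linear signal went from between 995 and 1419 to between 3563 and 4951. Their part in the results below was not tested. The summed signal of 4 hepatic markers was 186 to 201 in ES and 167 to 220 in Pax7-GFP arrays. Each array measured many cells together, so fewer cells of a type and less RNA per cell cannot be told apart.

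Members moved in both directions. Of the 35 measured, 8 fell and 7 rose in Pax7-GFP cells, where a change means an adjusted p below 0.05 (limma, Benjamini-Hochberg over all genes) together with a difference of 2-fold or more. By the same rule 14.5% of all genes were called, 7.34% higher and 7.15% lower. A further 7 members passed the p threshold with a smaller difference, which makes 22 of 35 past that threshold against 41.1% of all genes, and 13 passed neither. The median log2 fold change was -0.08 over members and 0.02 over all genes, and the median size of the change was 0.80 against 0.23. The groups did not overlap in 28 of 35 members, nor in 51.9% of all genes. The count of members that rose rests in part on 1 array, since without Pax7-GFP replicate 1 only 3 rose (Pdk4, Pygm and Gbe1), while 8 still fell. No measured member was left out for a low signal.

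**Figure D1:**
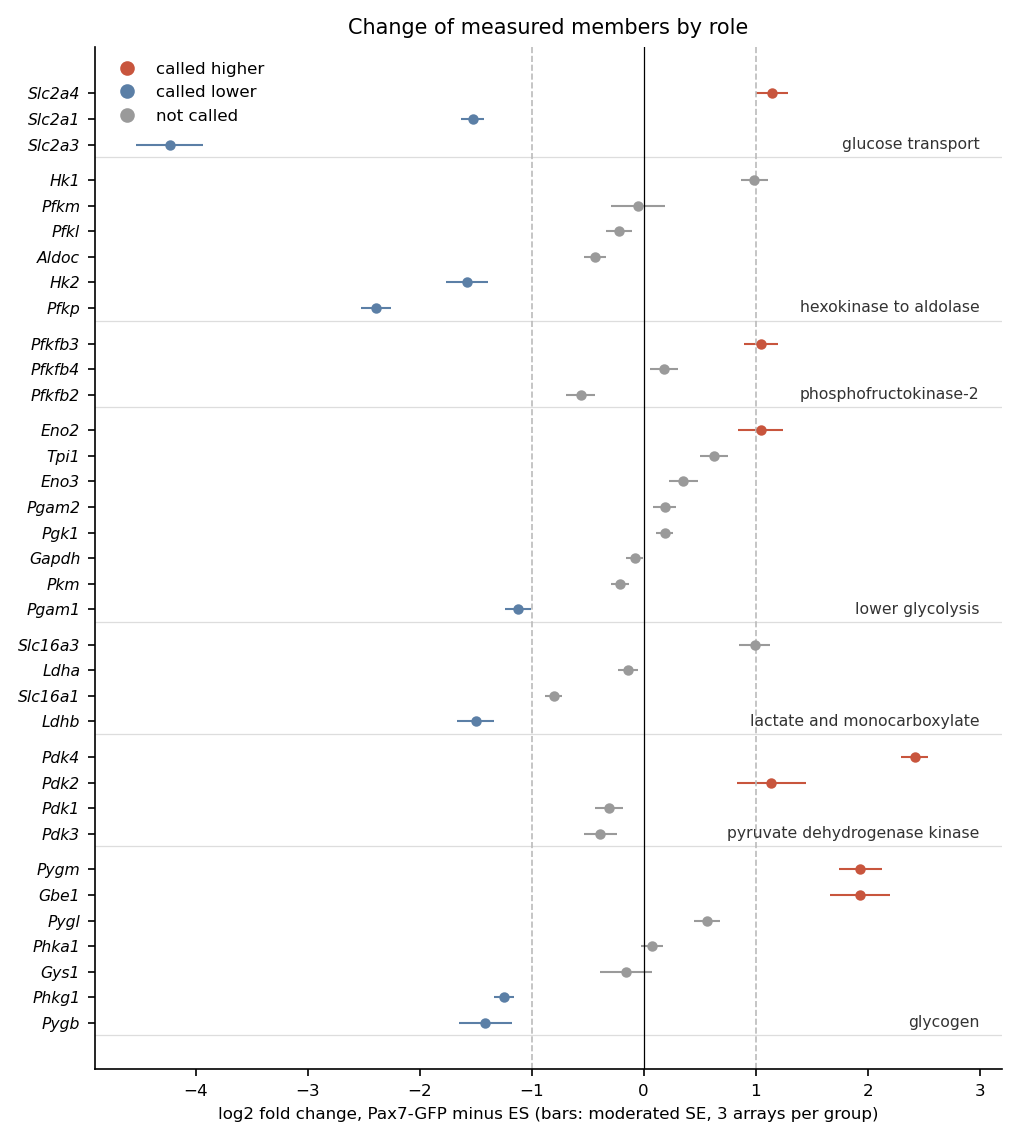
Log2 fold change (Pax7-GFP minus ES, x axis) of the 35 measured members, grouped by role, with the moderated standard error as bars and 3 arrays per group. Dashed lines mark a 2-fold difference. Slc2a3 lies farthest to the left at -4.23 and Pdk4 farthest to the right at 2.42.

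Glucose carriers changed at the entry to the pathway. Slc2a3 encodes GLUT3, a high-affinity carrier of neurons and early embryos, and had the largest change of any member. Its signal was 11.30, 11.34 and 11.35 in ES arrays and 7.92, 6.61 and 6.78 in Pax7-GFP arrays, so the groups lay far apart and Pax7-GFP replicate 1 was the highest of its group. The mean fell from 11.33 ± 0.025 to 7.10 ± 0.72 (SD over 3 arrays), a log2 change of -4.23 (SE 0.30, limma adjusted p = 1.09e-05), or 18.8-fold. Slc2a1, the widely expressed basal carrier GLUT1, was at 11.23, 11.40 and 11.38 in ES and at 9.80, 9.66 and 9.97 in Pax7-GFP arrays. It fell by 1.52 on the log2 scale (SE 0.10, limma adjusted p = 8.26e-06) and kept a mean signal of 9.81. A second, dim Slc2a1 probe set went from 5.36 to 5.04, and the mean of both stood at -0.92, short of 2-fold. Slc2a4, the insulin-responsive carrier of muscle and fat, went the other way. Its signal was 5.96, 5.73 and 5.99 in ES and 7.36, 6.88 and 6.89 in Pax7-GFP arrays, and its log2 fold change was 1.15 (SE 0.14, limma adjusted p = 0.000289). Without Pax7-GFP replicate 1 it stood at 0.99, just under the 2-fold minimum.

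Hexokinase traps glucose as its phosphate. Hk2, the inducible form that predominates in adult muscle, was at 8.999, 9.15 and 9.16 in ES arrays and at 7.57, 7.09 and 7.92 in Pax7-GFP arrays. It fell by 1.57 (SE 0.19, limma adjusted p = 0.000224), with the groups well apart. Hk1, the form found in most tissues, was at 6.87, 7.07 and 7.04 in ES and at 8.21, 7.93 and 7.80 in Pax7-GFP arrays. Its log2 difference of 0.99 (SE 0.12, limma adjusted p = 0.000251) passed the p threshold and missed the 2-fold minimum. It passed both without ES replicate 2 (1.02), without ES replicate 3 (1.01), without Pax7-GFP replicate 2 (1.01) and without Pax7-GFP replicate 3 (1.08).

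Phosphofructokinase commits sugar to glycolysis. Pfkp, the platelet-type subunit, had the second largest fall, from 9.78, 9.82 and 9.83 to 7.58, 7.59 and 7.09. This is a log2 change of -2.39 (SE 0.14, limma adjusted p = 3.12e-06), or 5.24-fold. The liver-type subunit Pfkl was at 8.71, 8.76 and 8.63 and at 8.63, 8.23 and 8.59, a log2 difference of -0.22 (limma adjusted p = 0.192). Pfkm, the muscle subunit, was at 7.54, 7.85 and 7.59 in ES arrays. In Pax7-GFP arrays it was at 8.23, 7.37 and 7.23, on both sides of the ES values. Its log2 difference of -0.05 (95% interval -0.60 to 0.51, limma adjusted p = 0.906) leaves room for a modest change either way. Without Pax7-GFP replicate 1 it stood at -0.36 (limma adjusted p = 0.0334), past the p threshold and below 2-fold. Aldoc, the brain aldolase, passed the p threshold alone at -0.44. On its shared probe set Aldoa, the aldolase of muscle and many other tissues, had a mean of 6.16 for ES and of 6.18 for Pax7-GFP.

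Of the 3 measured bifunctional enzymes that set the level of a strong phosphofructokinase activator, 1 rose and none fell. Pfkfb3, the form with high kinase activity, rose from 6.14, 6.47 and 6.60 to 7.71, 7.28 and 7.36 (log2 fold change 1.05, SE 0.15, limma adjusted p = 0.000672). Leaving out ES replicate 1 gave 0.91 and leaving out Pax7-GFP replicate 1 gave 0.92, below the minimum. Pfkfb2, the heart form, passed the p threshold alone at -0.56. Pfkfb4, known from testis, was at 0.18 and passed neither.

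Most enzymes of the lower part of the pathway kept high signals in both groups. Gapdh was at 13.07 ± 0.042 and 12.99 ± 0.030, Pkm, pyruvate kinase of muscle and dividing cells, at 11.85 ± 0.040 and 11.63 ± 0.082, and Pgk1, phosphoglycerate kinase, at 11.27 ± 0.039 and 11.45 ± 0.069 (SD, n = 3 each). None of these passed the test, with log2 differences of -0.08, -0.21 and 0.19. Tpi1, triosephosphate isomerase, passed the p threshold alone at 0.63. Gapdh is listed for 11 probe sets, 3 of them without another symbol, and processed copies in the genome leave it uncertain which copy each reads. Those 3 stood at -0.08, -0.08 and -0.39, and all 11 lay between -0.73 and -0.07. Probe sets here do not separate the splice forms of Pkm.

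Pgam1, the phosphoglycerate mutase of most tissues, was at 10.69, 10.54 and 10.54 in ES and at 9.65, 9.23 and 9.53 in Pax7-GFP arrays. It fell by 1.12 (SE 0.12, limma adjusted p = 0.000108), and its second probe set stood at -1.36. Pgam2, the muscle mutase, was low in every array, at 5.50, 5.64 and 5.77 against 5.94, 5.69 and 5.86. Its log2 difference was 0.19 (95% interval -0.05 to 0.43, limma adjusted p = 0.203). Eno3, the muscle enolase, already had a signal of 8.99, 9.04 and 8.98 in ES arrays. Pax7-GFP arrays gave 9.62, 9.09 and 9.36, all above the ES arrays, for a log2 difference of 0.35 (95% interval 0.06 to 0.65) that did not pass after adjustment (limma adjusted p = 0.0606). Eno2, the enolase of neurons, rose from 6.06, 6.09 and 6.19 to 7.65, 6.77 and 7.06 (log2 fold change 1.04, SE 0.20, limma adjusted p = 0.00292) and stood at 0.80 without Pax7-GFP replicate 1. Beside this rise, 3 of 6 neural markers fell (Stmn2, Nefl and Tubb3) and 1 rose (Map2, by 1.46). Elavl3 and Snap25 stood at -0.12 and 0.15 without passing. The summed linear signal of the 6 went from between 3387 and 3499 to between 402 and 468. In ES arrays this sum lay mostly in Stmn2, Tubb3 and Nefl, with mean log2 signals of 10.95, 9.33 and 9.31. Whether neural cells have a part in the Eno2 rise was not tested.

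**Figure D2:**
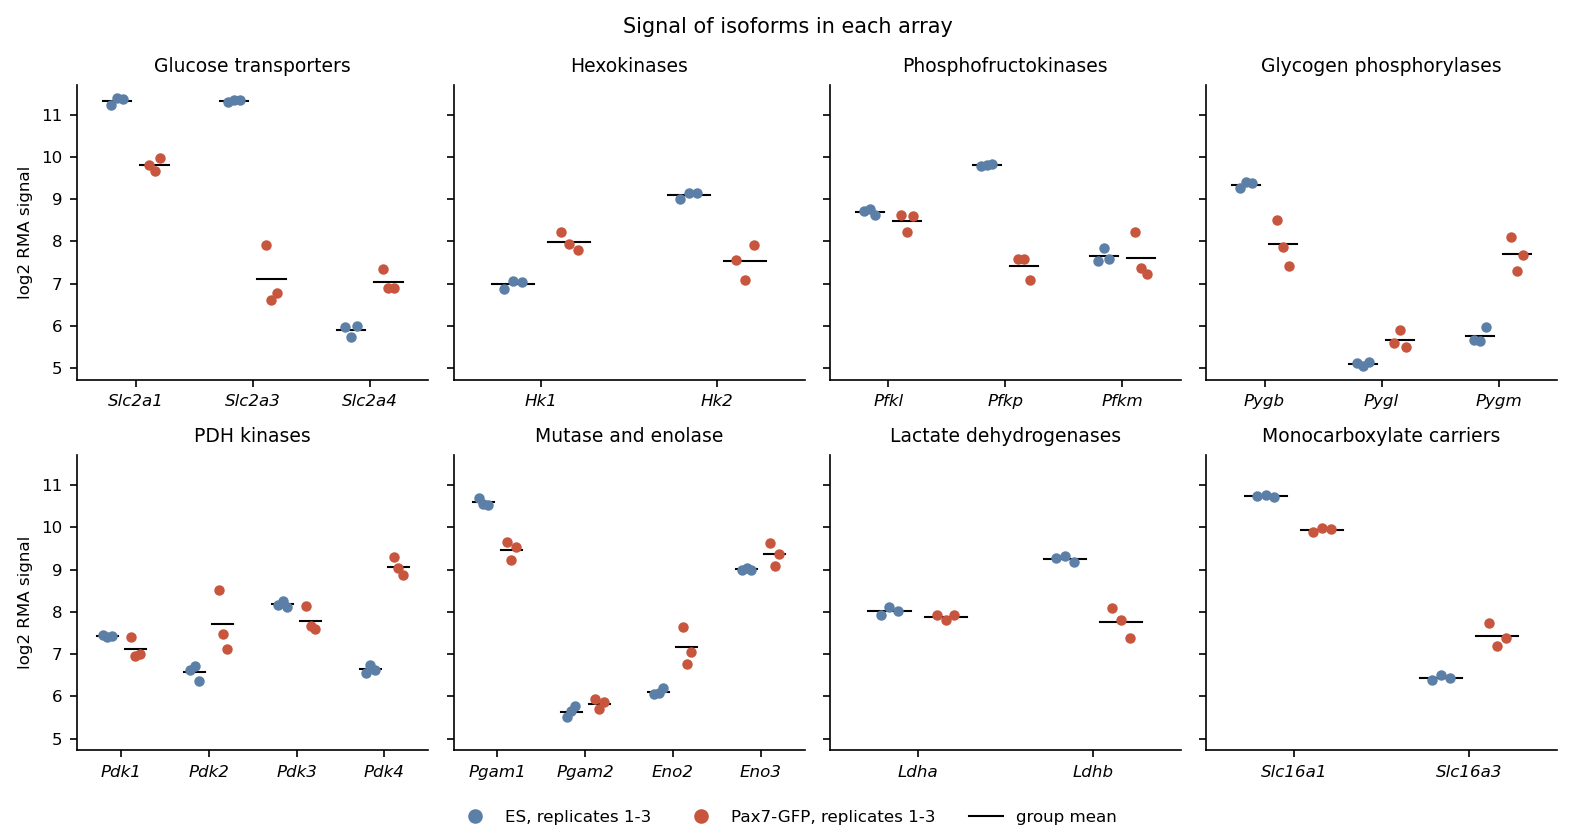
Log2 RMA signal (y axis) of isoforms in each of the 3 ES and 3 Pax7-GFP arrays, with the group means as lines, in panels by enzyme or carrier family. Probe sets differ in brightness, so heights are to be compared between groups for 1 gene and not between genes. Slc2a3, Pfkp and Hk2 drop and Pygm, Pdk4 and Slc2a4 climb with no overlap of the groups.

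At the end of the pathway, lactate dehydrogenase interconverts pyruvate and lactate. Ldhb, the heart-type subunit, fell from 9.28, 9.32 and 9.17 to 8.09, 7.80 and 7.39 (2.83-fold, SE 0.16 on the log2 scale, limma adjusted p = 0.000129). Ldha, the muscle-type subunit, was at 7.93, 8.11 and 8.03 and at 7.92, 7.80 and 7.92, a difference of -0.14 (95% interval -0.34 to 0.06, limma adjusted p = 0.249). Lactate leaves or enters the cell through monocarboxylate carriers. Slc16a1, the widespread carrier MCT1, gave 10.74, 10.77 and 10.72 for ES and 9.88, 9.98 and 9.97 for Pax7-GFP. The arrays of each group lay close together, yet the log2 difference of -0.80 (SE 0.076, limma adjusted p = 5.94e-05) was below 2-fold. Slc16a3, the export carrier MCT4 of fast glycolytic muscle, gave 6.38, 6.50 and 6.44 for ES and 7.74, 7.19 and 7.38 for Pax7-GFP. Its log2 difference of 0.99 (SE 0.14, limma adjusted p = 0.000491) missed the 2-fold minimum by a small margin. It passed without ES replicate 2 (1.02), without Pax7-GFP replicate 2 (1.11) and without Pax7-GFP replicate 3 (1.02). A probe set shared by Slc16a3 and Csnk1d stood at 0.52.

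Pyruvate dehydrogenase kinases gave the largest rise of any member. Pdk4, the kinase that fasting and fat oxidation induce in muscle, rose from 6.56, 6.75 and 6.63 to 9.31, 9.05 and 8.86. The mean went from 6.65 ± 0.096 to 9.07 ± 0.22 (SD over 3 arrays), a log2 change of 2.42 (SE 0.12, limma adjusted p = 1.55e-06), or 5.36-fold. Pdk2, a kinase of most tissues, was at 6.62, 6.71 and 6.37 in ES and spread from 8.51 over 7.49 to 7.13 in Pax7-GFP arrays. Its rise of 1.14 (SE 0.31, limma adjusted p = 0.0172) is the least secure of the called members. The call was lost without ES replicate 1 (limma adjusted p = 0.0504), without ES replicate 3 (limma adjusted p = 0.0675) and without Pax7-GFP replicate 1, where the log2 fold change was 0.74. Pdk1, a target of the hypoxia response, was at 7.45, 7.41 and 7.42 against 7.41, 6.95 and 6.99, a log2 difference of -0.31 (limma adjusted p = 0.0908). Pdk3 was at -0.39 (limma adjusted p = 0.0654). In both, Pax7-GFP replicate 1 lay within the ES range and the other two arrays below it.

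Of the 7 glycogen genes 2 rose (Pygm and Gbe1), 2 fell (Pygb and Phkg1) and 3 were not called. Phosphorylase releases glucose units from glycogen. Pygm, the muscle form, rose from 5.65, 5.65 and 5.98 to 8.11, 7.30 and 7.68, a log2 change of 1.94 (SE 0.20, limma adjusted p = 8.19e-05) or 3.83-fold on the RMA scale. Its ES signal lay near the array medians of 5.61 to 5.69, where RMA compresses folds, so the fold is uncertain in size. Pygb, the brain and fetal form, fell from 9.25, 9.40 and 9.38 to 8.51, 7.87 and 7.42 (log2 fold change -1.42, SE 0.24, limma adjusted p = 0.00145). The liver form Pygl had a dim signal, at 5.12, 5.04 and 5.14 against 5.59, 5.91 and 5.51, and passed the p threshold alone at 0.57. Gbe1, which adds the branches to glycogen, rose from 5.85, 5.81 and 5.72 to 7.03, 7.90 and 8.26. Its log2 fold change was 1.93 (SE 0.27, limma adjusted p = 0.000514), and here Pax7-GFP replicate 1 was the lowest of its group. Gys1, the glycogen synthase of muscle and other tissues, was at 8.29 ± 0.15 and 8.13 ± 0.53 (SD, n = 3 each) and differed by -0.16 (95% interval -0.70 to 0.39), or by 0.13 without Pax7-GFP replicate 2.

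Phosphorylase kinase switches phosphorylase on, and its muscle subunits did not follow Pygm. Phkg1, the muscle catalytic subunit, fell from 6.87, 6.68 and 6.78 to 5.44, 5.52 and 5.63, with tight groups (log2 fold change -1.25, SE 0.092, limma adjusted p = 1.34e-05). Phka1, the muscle regulatory subunit, was at 7.69, 7.84 and 7.75 and at 8.01, 7.76 and 7.74, a difference of 0.08 (95% interval -0.15 to 0.31, limma adjusted p = 0.600).

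Isoforms of the same step were then compared for unequal change. Within each array the log2 signal of 1 isoform was subtracted from that of the other, and the shift of this difference from ES to Pax7-GFP was tested over arrays. A constant offset in the brightness of a probe set cancels in the shift, which shows only that 2 genes changed unequally. The compression of dim signals by RMA does not cancel. Shifts of pairs that hold Pgam2, Pygl, Pygm or Slc2a4, dim in at least the ES group, are therefore uncertain in size. With 3 arrays against 3 the smallest two-sided p of the exact permutation test is 0.10, so no pair can pass 0.05. Of 15 pairs planned 12 could be computed. In 11 of them the groups did not overlap, each at an exact permutation p of 0.10 (0.109 after Benjamini-Hochberg adjustment over 12 pairs). In 9 of these 11 the shift was toward the gene entered in its pair as the muscle form. Among these genes Ldha, Slc16a3 and Pdk4 are outside the class of muscle isoforms described below. Each shift restates the 2 changes above, so these counts are no separate evidence. Pairs that share Slc2a4, Pygm or Pfkm are not separate cases either. Taken singly, 51.9% of all genes did not overlap between the groups, and no such share was computed for gene pairs.

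The widest shift was that of Slc2a4 against Slc2a3, at 5.38 (SE 0.27, n = 3 each), with Pax7-GFP arrays at 4.87, 5.71 and 5.55 relative to the ES mean. Slc2a4 against Slc2a1 shifted by 2.67 (SE 0.22). Pygm shifted by 3.35 (SE 0.27) against Pygb and by 1.37 (SE 0.35) against Pygl. Pdk4 shifted by 2.73 (SE 0.10) against Pdk1. Other shifts toward the form used in muscle were those of Pfkm against Pfkp at 2.34 (SE 0.27), Slc16a3 against Slc16a1 at 1.79 (SE 0.19), Ldha against Ldhb at 1.36 (SE 0.22) and Pgam2 against Pgam1 at 1.31 (SE 0.13). On the RMA scale the second gene carried most of the shift in both Slc2a4 pairs and in Pfkm against Pfkp. So it did in Ldha against Ldhb and in Pgam2 against Pgam1. It carried much of the shift in Slc16a3 against Slc16a1 and in Pygm against Pygb. Pfkm, Ldha and Pgam2 did not pass the test on their own. Hk2 against Hk1 ran the opposite way, by -2.56 (SE 0.30), as did Eno3 against Eno2, by -0.69 (SE 0.13). Pfkm against Pfkl gave 0.17 (SE 0.29, exact permutation p = 0.70, 0.70 adjusted over the pairs), with overlapping groups, and -0.07 without Pax7-GFP replicate 1.

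**Figure D3:**
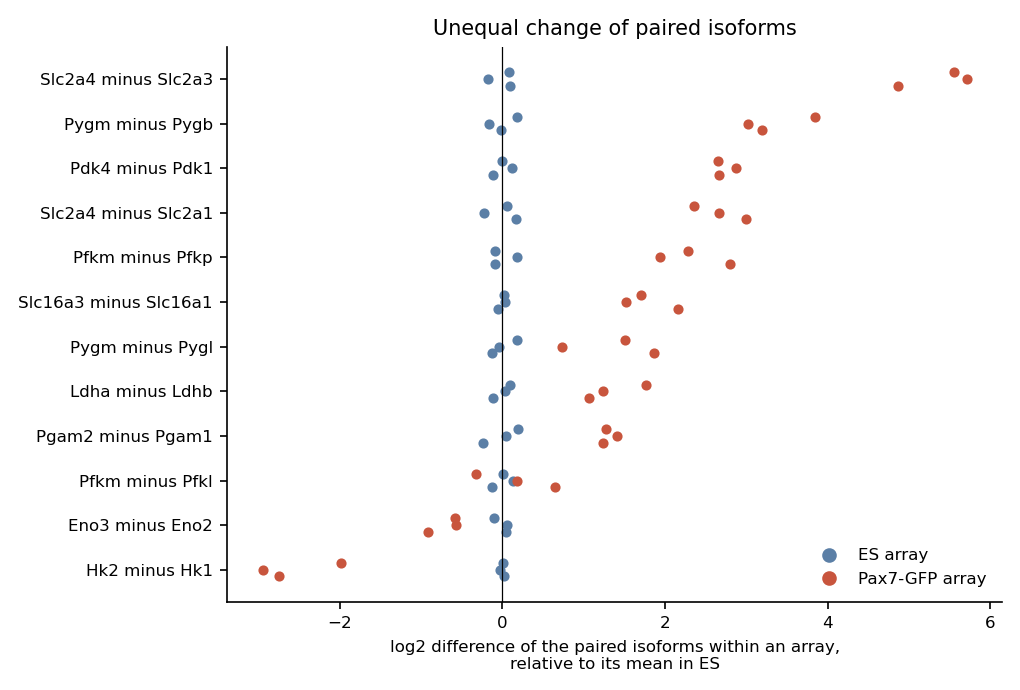
Log2 difference between paired isoforms within each array, relative to its mean in ES (x axis), for 12 pairs and all 6 arrays. Pax7-GFP arrays lie to the right of the ES arrays in 9 pairs, to the left in the pairs Hk2 minus Hk1 and Eno3 minus Eno2, and overlap them in Pfkm minus Pfkl.

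By class, the muscle isoforms (Pfkm, Pgam2, Eno3, Pygm, Slc2a4, Phka1 and Phkg1) had a median log2 fold change of 0.19, with 2 higher, 1 lower and 4 not called. The 8 measured isoforms of the same steps that are widespread or belong to other tissues had a median of -1.27, with 1 higher (Eno2), 5 lower (Slc2a3, Pfkp, Slc2a1, Pygb and Pgam1) and 2 not called. On the RMA scale the gap between the classes thus came more from falls of the second class than from rises of the first. Pygm and Slc2a4, which rose, had ES means of 5.76 and 5.90, where RMA compresses folds. The 5 that fell started from brighter signals, so the rises may be understated beside the falls. With Hk2, Gys1, Ldha, Slc16a3 and Pdk4 added, the median of the muscle class was 0.13 over 12 genes. The second class was not widened to match, and it holds no counterpart of Phka1 or Phkg1.

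Promoters are shown for a carrier and 3 enzymes that changed. Pygb and Pygm, which changed in opposite directions, can so be read beside a gene that fell and one that rose. Each line gives the 250 bases before the transcription start from RefSeq (GRCm38.p6), 5′ to 3′ on the gene's strand. Capitals mark matches, on either strand, to ACGTG or GCGTG, cores of the hypoxia response element, and to CAGCTG, an E-box that MyoD and myogenin can bind. A letter match is a description and not a binding site. Slc2a1 (chr4:119108495-119108744, plus strand) and Pygb (chr2:150786546-150786795, plus strand) fell, while Pygm (chr19:6384158-6384407, plus strand) and Pdk4 (chr6:5496279-5496528, minus strand) rose.
Slc2a1: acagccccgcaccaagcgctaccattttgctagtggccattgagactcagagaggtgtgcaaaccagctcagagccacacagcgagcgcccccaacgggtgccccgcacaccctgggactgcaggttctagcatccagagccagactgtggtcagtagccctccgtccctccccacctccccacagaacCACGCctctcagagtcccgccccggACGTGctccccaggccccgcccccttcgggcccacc
Pygb: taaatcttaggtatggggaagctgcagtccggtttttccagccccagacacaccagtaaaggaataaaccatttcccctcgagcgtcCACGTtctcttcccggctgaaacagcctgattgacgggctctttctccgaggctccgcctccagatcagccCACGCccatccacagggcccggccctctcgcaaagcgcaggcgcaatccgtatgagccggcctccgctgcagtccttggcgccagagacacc
Pygm: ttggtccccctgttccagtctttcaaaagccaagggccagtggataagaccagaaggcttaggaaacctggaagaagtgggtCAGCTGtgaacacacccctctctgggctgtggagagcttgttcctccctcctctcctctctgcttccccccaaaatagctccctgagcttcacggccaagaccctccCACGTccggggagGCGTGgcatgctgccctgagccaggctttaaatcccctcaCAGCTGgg
Pdk4: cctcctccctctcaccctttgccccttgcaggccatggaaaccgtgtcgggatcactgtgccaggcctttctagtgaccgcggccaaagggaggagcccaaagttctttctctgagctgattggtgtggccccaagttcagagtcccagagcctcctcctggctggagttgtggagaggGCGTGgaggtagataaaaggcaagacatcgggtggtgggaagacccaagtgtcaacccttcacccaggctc

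In these stretches Slc2a1, Pygb and Pygm each hold 1 match to ACGTG and 1 to GCGTG, Pdk4 holds 1 to GCGTG, and Pygm alone of the 4 holds CAGCTG, at 2 places. Over the whole 300-base windows, which reach 50 bases past the start, 37 of the 39 named genes, all but Slc2a3 and Slc2a4, had 56 windows in the table. ACGTG was found in 24 of them, or 42.9%, against 19.6% of all 32851 windows, and GCGTG in 53.6% against 32.4%. The members' windows were also richer in G and C, with a median of 59.7% against 52.7%. Both motifs contain the base pair step CG, whose median count was 15.5 in member windows against 7 in all windows. The part of this composition in the motif shares was not tested. CACGTG, an E-box that contains ACGTG, was in 10.7% of member windows and 7.15% of all, and CAGCTG in 19.6% and 16.3%. ACGTG stood in 4 of 8 windows of members that rose and in 4 of 7 of members that fell, and GCGTG in 3 of 8 and 5 of 7. CAGCTG stood in 1 of those 8 windows, that of Pygm, and in 0 of the 7. Most of its matches lay in the 41 windows of the other members, which were not called or not measured. There CAGCTG stood in 10, ACGTG in 16 and GCGTG in 22.

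Other genes of glucose metabolism were taken from a list of 65, of which 57 were measured. In this list 8 rose and 6 fell. Another 19 had a small difference with an adjusted p under 0.05, and the list's median was 0.10. Over all genes 7.34% rose and 7.15% fell, and 5914 of 22180 had such a small difference. Pgm5, a relative of phosphoglucomutase known as a structural protein of muscle cell junctions, rose by 3.90 (SE 0.23, limma adjusted p = 3.83e-06). Slc2a12, another insulin-sensitive glucose carrier, rose by 2.29 (SE 0.20, limma adjusted p = 3.33e-05). Emb, embigin, which escorts monocarboxylate carriers to the membrane, fell by 2.32 (SE 0.11, limma adjusted p = 8.69e-07). Tigar, which lowers the phosphofructokinase activator and favours the pentose phosphate route, fell by 1.78 (SE 0.079, limma adjusted p = 7.33e-07).

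The other called genes of this list are named after their values were seen. Pgd, Taldo1 and Rpe, enzymes of the pentose phosphate route, fell, with log2 changes of -1.53, -1.498 and -1.64, while Pgls and Rpia of the same route stood at 0.23 and 0.38 without passing. Gyg, the protein primer of glycogen, rose by 1.45, and Stbd1, which tethers glycogen to membranes, by 1.33. At the gate to the mitochondrion Mpc1, a subunit of the pyruvate carrier, rose by 1.08. The phosphatases that reverse pyruvate dehydrogenase kinases split, with Pdp1 at 1.497 and Pdp2 at -1.55. Slc16a7, the carrier MCT2, rose by 1.25 and Pck2, a mitochondrial enzyme of glucose synthesis, by 1.29.

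**Figure D4:**
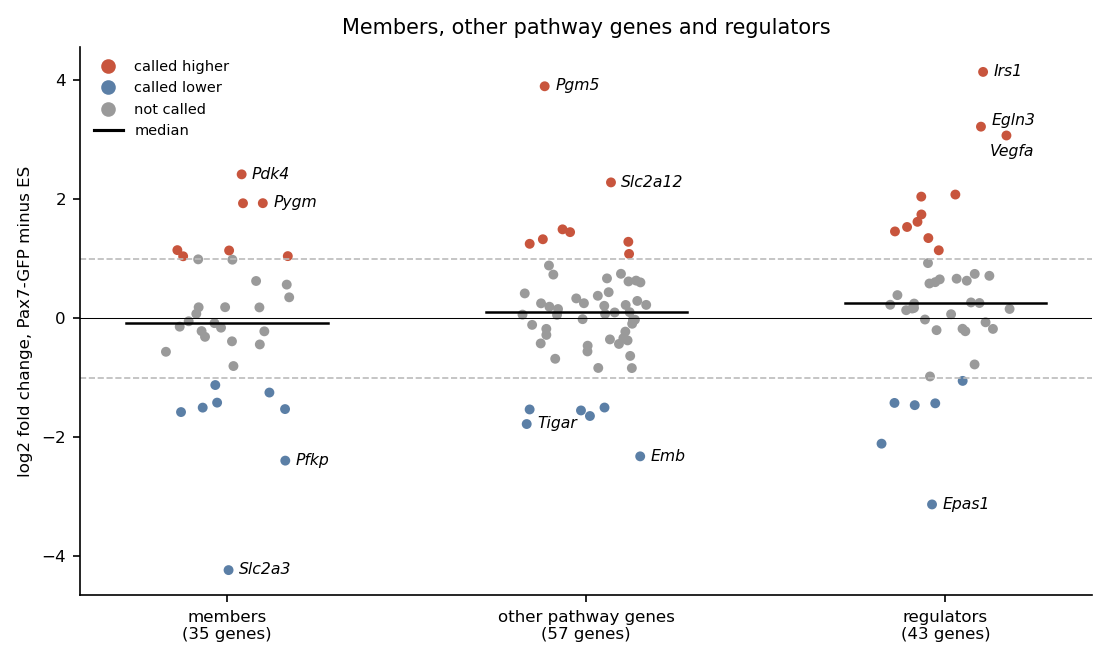
Log2 fold change (Pax7-GFP minus ES, y axis) of 35 members, 57 other genes of glucose metabolism and 43 regulators, with list medians as lines at -0.08, 0.10 and 0.26. The 4 called genes with the largest change in each list are named, and each list spreads to both sides of 0.

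Regulators of glucose use came from a list of 45, of which 43 were measured. Of these 11 rose, 6 fell and another 11 had a small difference with an adjusted p under 0.05, and the list's median was 0.26. The shares over all genes were 7.34% higher and 7.15% lower, with 5914 of 22180 at such a small difference. Irs1, an adaptor of the insulin receptor, had values of 6.31, 5.89 and 6.24 in ES and 10.33, 10.23 and 10.31 in Pax7-GFP arrays. Its rise of 4.14 (SE 0.12, limma adjusted p = 7.17e-08) was the largest of the list. Egln3, an oxygen sensor that is itself induced by hypoxia, rose by 3.22 (SE 0.23, limma adjusted p = 1.24e-05), and Vegfa, a growth factor for vessels, by 3.07 (SE 0.18, limma adjusted p = 3.39e-06). Epas1, which encodes the hypoxia factor HIF-2 alpha, fell by 3.13 (SE 0.090, limma adjusted p = 7.37e-08). Hif1a, its paralog and a known activator of glycolytic genes, was at 9.61 ± 0.084 and 9.44 ± 0.17 (SD, n = 3 each) and did not pass (log2 difference -0.17, 95% interval -0.42 to 0.07).

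Further regulators are named after their values were seen. Irs2, a second insulin receptor adaptor, rose by 2.05, the kinase Akt1 by 1.46, and Tbc1d4, an Akt substrate that holds GLUT4 vesicles inside the cell, by 1.62. The insulin receptor Insr and Akt2 passed the p threshold alone at 0.66 and 0.72, and Tbc1d1, a relative of Tbc1d4, was at 0.23 and passed neither. Foxo1, a known activator of Pdk4 in muscle, rose by 1.54. Mycn and the RNA-binding proteins Lin28a and Lin28b, high in pluripotent cells, fell by 1.43, 2.11 and 1.05, and Myc stood at 0.75, past the p threshold alone. The remaining called regulators were Car9 at 2.08, Ddit4 at 1.75, Prkag2 at 1.35 and Egln1 at 1.14, with Esrrb at -1.46 and Prkaa2 at -1.42. Txnip, which restrains glucose uptake, was at 9.78, 9.72 and 9.78 in ES and at 10.41, 8.94 and 9.40 in Pax7-GFP arrays, on both sides of the ES values.

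Members varied more among Pax7-GFP arrays than among ES arrays. The SD was larger in Pax7-GFP cells for 31 of 35 members, and for 72.0% of all genes. The median SD was 0.080 for ES and 0.24 for Pax7-GFP, with the widest spreads in Slc2a3 (0.72) and Pdk2 (0.71). Pax7-GFP replicate 1 was the highest of its group in 25 of the 35 members, or 71.4%, against 33.8% of all genes. Pax7-GFP replicate 2 was the lowest in 19, or 54.3%, against 31.1% of all genes. This pattern was noticed in the data. The mean log2 signal of the fibroblast markers was 9.38, 9.01 and 8.92 in Pax7-GFP replicates 1, 2 and 3, and that of the differentiated muscle markers 8.96, 8.62 and 9.24. Whether cell makeup has a part in the pattern was not tested.

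**Figure D5:**
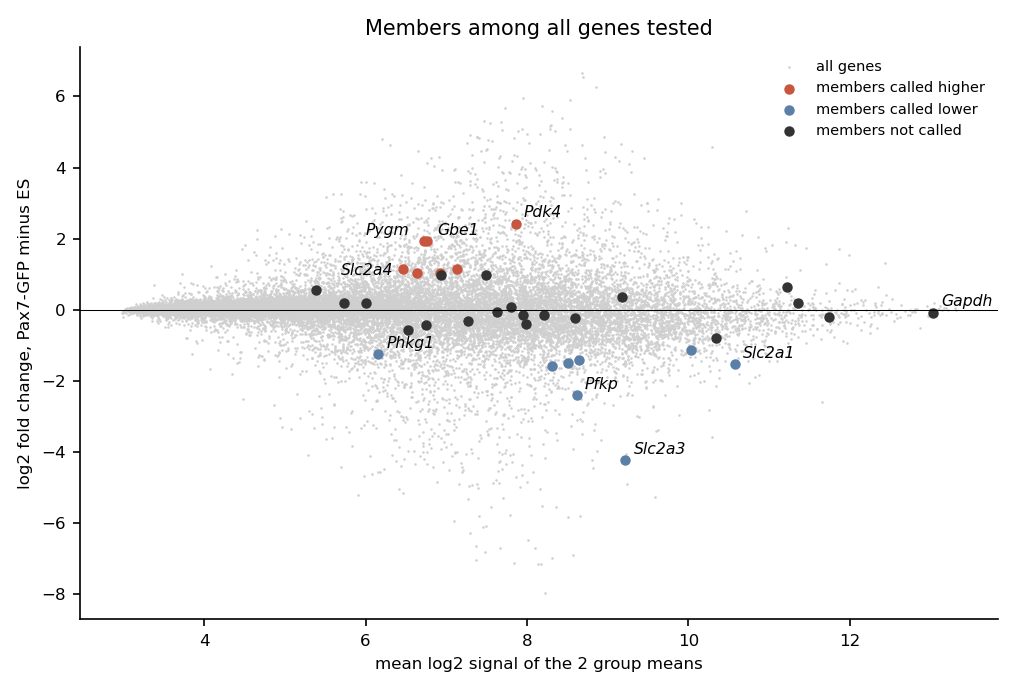
Log2 fold change (Pax7-GFP minus ES, y axis) against the mean log2 signal (x axis) for all 22180 genes in grey, with the 35 members coloured by call. Members lie on both sides of 0, with 7 called higher, 8 called lower and 20 not called.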

How the data were processed

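Total RNA of 6 samples was labelled with biotin after double amplification and hybridised to 1 array each, per the labels' protocols. The deposited values are RMA signals on the log2 scale made by the authors, with RMA in R 2.12.1 per the submitters' processing notes. For probe set definition, RMA options and genome build the labels name nothing, and scanner files were not used here. RMA compresses the folds of dim genes. Array medians lay between 5.61 and 5.69.

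Groups came from sample titles. Titles call the samples biological replicates without saying what was separate, so a p-value here reflects only their spread, which may be technical. The number of arrays limits precision. Gene symbols came from the platform annotation held by GEO, in which 23521 of 41345 rows carry 1 symbol. A gene was represented by its brightest single-symbol probe set. limma 3.58.1 in R 4.3.3 (lmFit, eBayes, two-sided) was fitted to 22180 genes. A call needs an adjusted p under 0.05 and a 2-fold change. The fit was tested on simulated data. Isoform pairs were tested by exact permutation over arrays. Intervals are 95% and use the moderated SE.

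Members, lists and pairs were chosen with earlier results of these data known. Every member is named, with array values for paired isoforms and the 6 largest changes. From the other lists the 4 largest called changes are named, along with the anchors Pax7, Myod1, Myog, Nanog, Sox2 and Ckm. Myod1, Myog and Sox2 had log2 fold changes of 5.09, 4.85 and -6.48. Marker lists not described in the report gave 0 of 4 adipose and 1 of 3 cardiac genes called, and 0 of 3 erythroid genes were measured. Of the adipose genes Fabp4 and Pparg passed the p threshold alone, with log2 fold changes of 0.86 and 0.48. Eno3 against Eno1, Aldoa against Aldoc and Pfkfb1 against Pfkfb3 were not computed. Promoter windows are from RefSeq, and protein sequences were not used here. Alternatives changed scaling, floor, filter, probe set rule, variance prior, weights, block, threshold and arrays.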

Additional observations from a re-analysis of the deposited data

How the results depend on the processing

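The 8 falls among members stayed between 7 and 8 under scaling, floor, dim-gene filter, probe set rule, variance prior, array weights and replicate block, and at 8 without any single array. Rises numbered 7 in the deposited scale, 4 with array weights, 3 to 9 without single arrays, 11 without a minimum fold and 2 in a limma test against 2-fold, where 3 members fell. All genes called numbered 3212, or 3169 to 3309 without single arrays, 9126 without a minimum fold and 1713 against 2-fold. The other pathway genes had 17 higher and 16 lower without a minimum fold and 3 higher against 2-fold, and the regulators had 20 higher and 3 lower in the same 2 settings. Other counts stayed within 1.5 times. Isoform pairs kept their direction under scaling, floor, filter and probe set rule, and without single arrays, except Pfkm against Pfkl, which was at -0.068 without Pax7-GFP replicate 1 and reached 0.41 without another array.

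Replicate numbers were not taken to pair the samples, as the labels do not say that they do. Same-numbered ES and Pax7-GFP arrays deviated from their group means with correlations of -0.11, -0.22 and 0.0069 over genes, and not every array correlated best with its own number. Deviations within a group depend on one another, so these correlations cannot settle whether same-numbered samples shared a batch. With the replicate block the same 15 members were called (7 higher, 8 lower), and the pair shifts and fold changes were the same by construction. Signal limits members with a group mean near the array medians, whose folds RMA compresses and whose sizes are therefore uncertain. These include Pgam2, Pygl and Pfkfb4, which were not called, and also the called members Pygm, Gbe1 and Slc2a4 (dim in ES) and Phkg1 (dim in Pax7-GFP).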
